A study of Mus with 6 samples.

Results

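Gbp11, H2-K2, Mx1, Mx2, Art2a and Ptprv are 6 of the 2282 gene names in the authors' deposited comparison of RNA from treated and untreated mice. They were taken by name, as RNAs of interferon, major histocompatibility complex (MHC) and other immune or signalling genes, and they were chosen by their values in the comparison of AVE0991 with model libraries in that table (group means, statistic and degrees of freedom), which were already known. RefSeq (GRCm38.p6) lists all 6 as transcribed pseudogenes, loci that are transcribed but are not annotated as making a functional protein. The label of an immune locus holds by gene family for 5 of them. Ptprv is named for a receptor-type tyrosine phosphatase best known from bone, although RefSeq lists the locus as a transcribed pseudogene. The named table holds no value that ties it to immune cells.

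The RNA came from the right substantia nigra pars compacta, a midbrain nucleus whose dopaminergic neurons die in Parkinson's disease. All mice overexpressed human alpha-syn with the A53T substitution, and no group without the transgene was analysed here. The model group (3 samples) received vehicle, 0.9% sterile saline, and the AVE0991 group (3 samples) received 10 mg/kg of AVE0991, both as daily intraperitoneal injections over 30 days. AVE0991 is a small molecule that activates Mas, on which the peptide angiotensin-(1-7) acts. The promoter that drives the transgene, the age and sex of the mice, and whether each sample is 1 animal are not stated in the labels. The p-values therefore rest on the spread among these 6 samples, part of which may be technical.

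Interferons are signals that cells release on meeting viruses, and they switch on large families of antiviral genes. The Mx genes encode dynamin-like GTPases that block virus replication, and guanylate-binding proteins (the Gbp family) are GTPases that act against pathogens inside cells. Class I MHC molecules such as H2-K1 present peptides to T cells, and interferons raise their expression. Many inbred laboratory mice carry defective copies of Mx1 and Mx2. Art2a and its neighbour Art2b belong to the family of ADP-ribosyltransferases found on T cells. In the brain, microglia, the resident macrophages, are among the cells that answer interferon.

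Each of the 6 loci lies near a related gene in RefSeq, which for Ptprv is another tyrosine phosphatase. Gbp11 is next to Gbp6, with Gbp10 lying 2 genes away. H2-K2 is 2 genes away from H2-K1, the gene of a classical class I heavy chain. Art2a is 2 genes away from Art2b, and Mx1 and Mx2 are 3 genes apart, with Fam3b between them. Ptprv lies between Lgr6 and Ptpn7, the latter a tyrosine phosphatase of blood cells. Because family members share sequence, reads could be split or shared between a pseudogene and its protein-coding relative, and the labels do not say how the authors' counting treated such reads. Of the 10 nearest RefSeq genes on either side of each locus, the named table held only Mir219c, near H2-K2, and the Mx pair itself. Mir219c had normalized counts of 0 to 6.26 in the model group and 0 to 3.02 with AVE0991.

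Across the series, the count table by NONCODE identifier held 37036986 to 52029003 counts per library. The counts behind the named table, recovered as whole numbers for each library, summed to 1557654 to 2154023. The recovered libraries are called a, b and c within each group and were not matched to the sample numbers. The letters follow the scaling factors, with c having the lowest of its group (0.921 with AVE0991 and 1.08 in the model group). Values below are normalized counts, that is counts divided by the library's scaling factor. They are not divided by transcript length, so levels are compared between libraries and not between genes. Of 26 protein-coding markers of microglia, T cells, endothelium, astrocytes, oligodendrocytes, dopaminergic neurons and blood, 0 were in the named table, so the tissue and its cell content were not checked by them. Of 6 non-coding RNAs of neurons, 4 were present, and they did not move alike. Miat had group means of 20390 in the model group and 38198 with AVE0991 in the authors' deposited table, a ratio of 1.87, and Meg3 had 213794 and 218164 there. Peg13 had 46239 to 52857 normalized counts in the model libraries and 42130 to 47994 with AVE0991, and Rmst had 3268 to 3656 and 3052 to 3675. The part of tissue content in the results below was not tested. Model library c stood apart: among the 295 names outside these 6 that passed the test described next, it was the model library nearest to the AVE0991 mean for 238 (80.7%), and among all 1864 names tested for 969.

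Gbp11 and H2-K2 were lower with AVE0991, Art2a and Ptprv were higher, and Mx1 and Mx2 varied between libraries more than between groups. An edgeR quasi-likelihood test was fitted across 1864 names, with Benjamini-Hochberg adjusted p under 0.05 as the threshold; 299 names (16.0%) passed it, 144 higher (7.73%) and 155 lower (8.32%) with AVE0991. Of the 6 RNAs, 5 had enough counts to be tested and 4 passed, 2 in each direction. By the authors' own statistic and degrees of freedom, 4 of the 6 had an unadjusted p under 0.05, as did 18.9% of 2247 names, and none of the 6 passed after adjustment over all names (adjusted p from 0.222 to 0.922). Since the 6 were picked with this contrast known, their count and adjusted p-values are given as a description, and nothing is read from them against the background. The log2 fold changes of the 5 tested lay on both sides of 0. Their median, 0.87, was the value of Mx1, which did not pass, and describes no shared shift. In bulk tissue, fewer cells of a type and less RNA per cell cannot be told apart.

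Gbp11, a member of the guanylate-binding protein family, had 952, 1128 and 943 normalized counts in the model libraries, given here and below in the order a, b, c. With AVE0991 it had 652, 636 and 438. All 3 AVE0991 libraries lay below all 3 model libraries, and the lowest model library was 1.45 times the highest AVE0991 library. The group means were 1007 ± 104 and 575 ± 119 (SD, n = 3 each). The log2 fold change was -0.76 ± 0.19 (SE), with an adjusted p of 0.0286 (edgeR). AVE0991 library c was the low one of its group. Without it the log2 fold change was -0.60.

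The Gbp11 call did not outlast most smaller fits. Dropping any 1 library other than model library c ended it (5 of 6 such edgeR fits, adjusted p from 0.0568 to 0.109). The authors' deposited table gave a difference of -432 in group means, with 95% limits of -688 and -176, a statistic of -4.72 and 3.93 degrees of freedom.

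H2-K2, the class I MHC pseudogene, had 311, 337 and 259 normalized counts in the model libraries. With AVE0991 it had 116, 161 and 199. The groups did not overlap, and the nearest pair, model library c and AVE0991 library c, differed 1.30-fold. The group means were 302 ± 40.1 and 159 ± 41.5 (SD, n = 3 each). H2-K2 thus had a log2 fold change of -0.87 ± 0.25 (SE), with an adjusted p of 0.0472 (edgeR). This sits just inside the threshold. With DESeq2 size factors, library totals or no filter on low counts the adjusted p by the same edgeR test was 0.0531, 0.0537 and 0.0538, and with a library left out it ran from 0.0406 to 0.151. The authors' deposited table gave a difference of -144 with 95% limits of -236 and -51.4, a statistic of -4.32 and close to 4 degrees of freedom.

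The order of libraries a and c within the AVE0991 group differed between these lower RNAs. Gbp11 was lowest in library c (403 counts, exact Poisson interval 365 to 444) and highest in library a (647, 598 to 699). H2-K2 was instead lowest in library a (115, 94.9 to 138) and highest in library c (183, 157 to 212). Library b of Gbp11 (623, 575 to 674) is not resolved from library a. Library b of H2-K2 (158, 134 to 185) is resolved from neither a nor c. In the model group both were highest in library b and lowest in library c. There Gbp11 libraries a and c were close, at 952 and 943 normalized counts, as were H2-K2 libraries a and b, at 311 and 337.

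**Figure D1:**
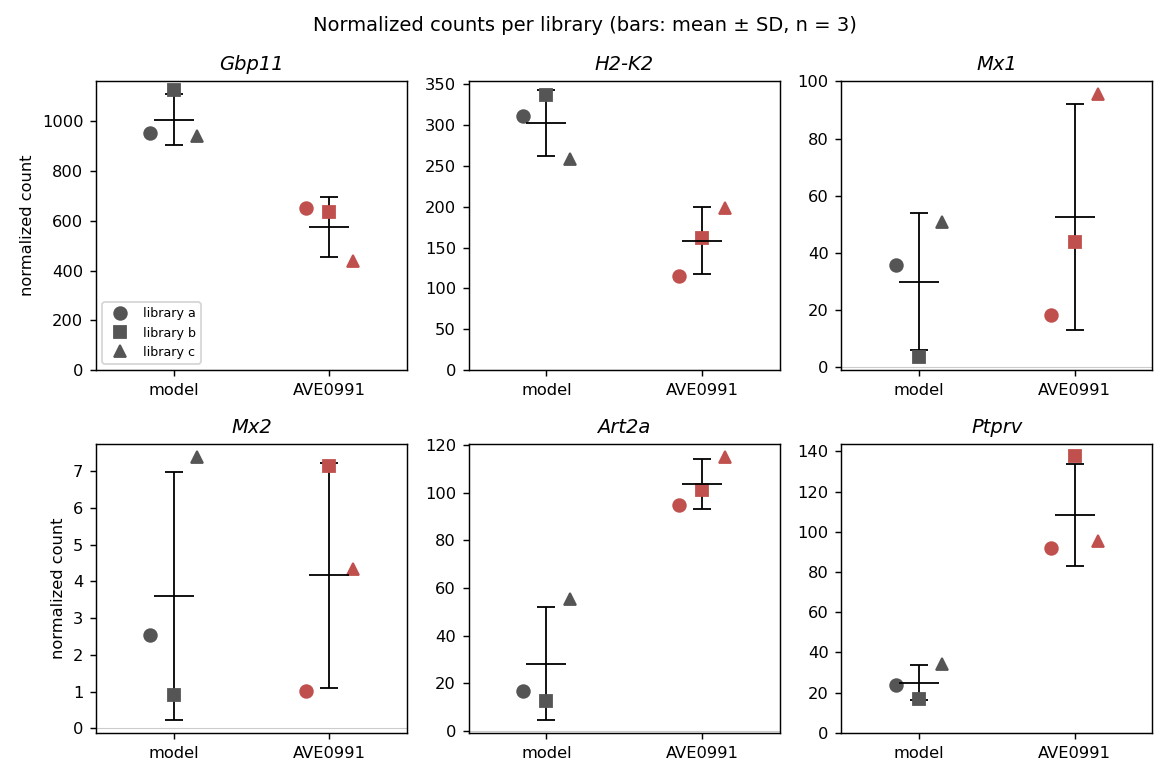
Normalized counts (y axis, a scale of its own in each panel) of the 6 RNAs in the 3 model and 3 AVE0991 libraries; symbols are libraries a, b and c, and bars are the mean ± SD. Gbp11 and H2-K2 lie lower and Art2a and Ptprv higher in all AVE0991 libraries, while the Mx1 and Mx2 groups overlap.

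Art2a, the ADP-ribosyltransferase pseudogene, had 17.0, 12.5 and 55.4 normalized counts in the model libraries. With AVE0991 it had 94.7, 101 and 115. Every AVE0991 library lay above every model library, with model library c, at 60 counts, far above the 20 and 14 counts of the other model libraries. The group means were 28.3 ± 23.6 and 104 ± 10.4 (SD, n = 3 each). The log2 fold change was 1.93 ± 0.53 (SE), with an adjusted p of 0.0425 (edgeR).

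Model library c narrowed the Art2a difference. Without it the log2 fold change was 2.88, with an adjusted p of 0.00183 (edgeR), and leaving out any other library lost the call (adjusted p from 0.0962 to 0.146, edgeR). The authors' deposited table gave a difference of 75.3 with 95% limits of 25.4 and 125, a statistic of 5.05 and 2.75 degrees of freedom.

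Ptprv, the phosphatase pseudogene, had 23.8, 17.0 and 34.2 normalized counts in the model libraries and 91.7, 138 and 95.6 with AVE0991. The lowest AVE0991 library was 2.68 times the highest model library, the widest gap among the 6 RNAs. The group means were 24.98 ± 8.66 and 108 ± 25.5 (SD, n = 3 each). The log2 fold change was 2.16 ± 0.37 (SE), with an adjusted p of 0.00760 (edgeR). It stayed past the threshold in all 13 other fits run on these counts, with log2 fold changes from 1.94 to 2.48 and adjusted p-values up to 0.0387 (edgeR, without model library a). The authors' deposited table gave a difference of 83.4 with 95% limits of 27.0 and 140, a statistic of 5.35 and 2.45 degrees of freedom.

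Likeness of profiles was compared between the RNAs that moved in one direction, which share the difference between groups for which they were chosen. The likeness of 2 profiles was measured as the root-mean-square difference of log2(normalized count + 1), centred on each name's own mean, over all 6 libraries. It was 0.43 for Art2a and Ptprv, and of 1702 names with a mean normalized count of at least 20, 7 lay nearer to Art2a than Ptprv did. It was 0.40 for Gbp11 and H2-K2, where 488 of 1702 names lay nearer to Gbp11 than H2-K2 did. The measure includes the difference between groups, so such counts depend on how many names changed by a like amount. By size of fold change, Ptprv and Art2a ranked at 55 and 73, and H2-K2 and Gbp11 at 418 and 513. The counts of the pairs are therefore not compared with each other. Art2a and Ptprv were both highest of the model group in library c and lowest in library b. Libraries a and b of Art2a, at 20 and 14 counts, lay within counting error of each other. The same held for all model libraries of Ptprv, at 28, 19 and 37 counts.

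Mx1, the interferon-induced GTPase, had 35.6, 3.58 and 50.8 normalized counts in the model libraries. With AVE0991 it had 18.1, 43.9 and 95.6. The groups overlapped: AVE0991 library a lay below model libraries a and c, and model library b was the lowest of all. The low library rested on 4 counts (exact 95% Poisson interval 1.09 to 10.2) and the high one on 88 (70.6 to 108). Both intervals cover only counting error, not the spread between samples. The group means were 30.0 ± 24.1 and 52.5 ± 39.4 (SD, n = 3 each), and the log2 fold change was 0.87 ± 0.86 (SE), with an adjusted p of 0.543 (edgeR). Leaving out a library moved the log2 fold change from 0.09 (without AVE0991 library c) to 1.51 (without model library c). The authors' deposited table gave a difference of 22.5 with 95% limits of -58.0 and 103, a statistic of 0.84 and 3.31 degrees of freedom.

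Mx2, its neighbour, was barely detected. It had 3, 1 and 8 counts in the model libraries and 1, 7 and 4 with AVE0991, or 12 counts in each group. After library scaling the ratio of AVE0991 to model was 1.17, with an exact 95% interval of 0.480 to 2.84 that covers counting error only. It did not pass the filter on low counts of the reported fit. With no filter its log2 fold change was 0.26, with an adjusted p of 0.937 (edgeR), and DESeq2 gave 0.28 with an adjusted p of 0.938. The counting interval alone spans values from below to above 1. The authors' deposited table gave group means of 4.16 and 3.61, a difference of 0.55 with 95% limits of -6.79 and 7.90, a statistic of 0.21 and 3.96 degrees of freedom.

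The libraries high in Mx1 were in part those high in Mx2. In the model group both were lowest in library b and highest in library c, and in the AVE0991 group both were lowest in library a. Mx1 peaked in AVE0991 library c and Mx2 in library b. Of 1702 names, 4 lay nearer to the Mx1 profile than Mx2 did (root-mean-square difference 0.90). Mx1 had few close names, the nearest lying at 0.73, so a low count does not show that the Mx pair moved together. The count from the side of Mx2, which had 1 to 8 counts per library, was not taken.

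Mx1 in both groups, and Art2a in the model group, varied more between libraries than most names of similar level. The coefficient of variation (SD over mean) of Mx1 was 80.4% in the model group and 75.1% with AVE0991. The 399 names whose mean normalized count lay within 2-fold of that of Mx1 had medians of 34.6% and 33.2%, and 29 and 31 of them varied more. Art2a varied by 83.4% in the model group but by 10.1% with AVE0991. Among 422 names of similar level the medians were 28.0% and 29.4%. Level here is the mean over all 6 libraries, not that of the group whose spread is compared. The model mean of Art2a was lower, at 28.3 against 104 with AVE0991, and counting error weighs more there. Mx2 varied by 93.5% and 73.7%, but only 2 tested names had a similar level, and both varied more in the model group. Ptprv varied by 34.7% and 23.6%. Gbp11 varied by 10.3% in the model group and 20.8% with AVE0991, and H2-K2 by 13.2% and 26.1%.

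**Figure D2:**
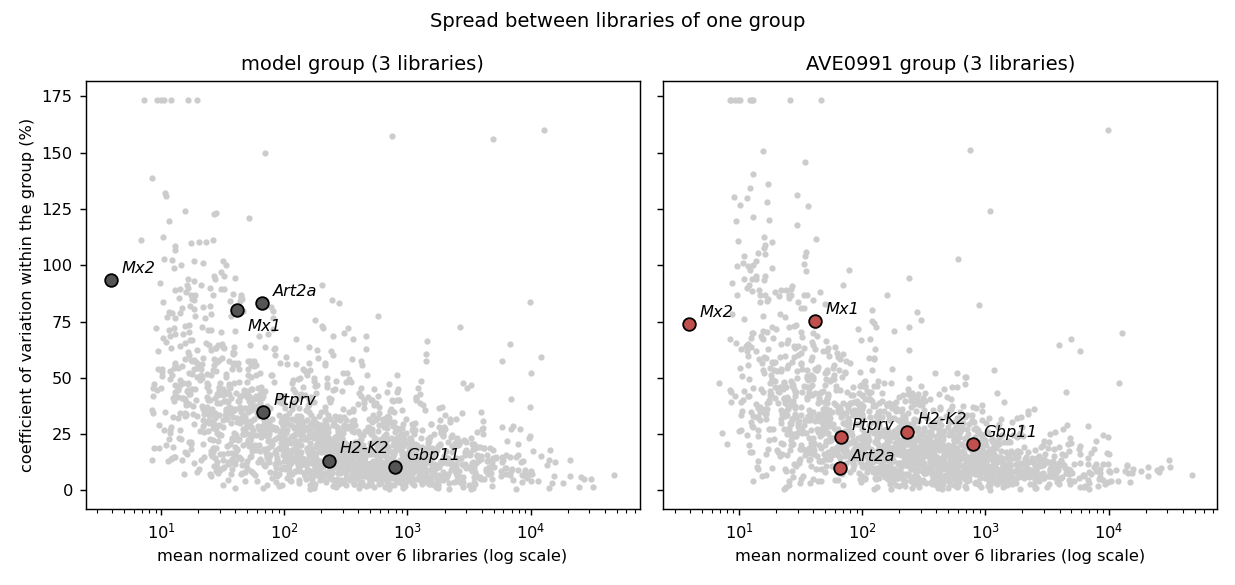
Coefficient of variation between the 3 libraries of a group (y axis, percent) against the mean normalized count over 6 libraries (x axis, log scale), for the model group (left) and the AVE0991 group (right); grey points are the 1864 names tested. Mx1 lies high in both groups, at 80.4% and 75.1%, and Art2a lies high only among the model libraries, at 83.4% against 10.1%.

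The groups did not overlap for 4 of the 6 RNAs. This held for 727 of the 1864 names tested (39.0%), so separation of 3 libraries from 3 was common in this table. Model library c lay nearest to the AVE0991 mean for each of the 4 RNAs that passed the test, as it did for 80.9% of all 299 names that passed and for 52.0% of the 1864 tested. Without that library the same 4 passed, with log2 fold changes of -0.78 for Gbp11, -0.95 for H2-K2, 2.88 for Art2a and 2.48 for Ptprv. What sets model library c apart was not tested. Among all 1864 names, Ptprv ranked at 55 and Art2a at 73 by the size of the fold change, whereas H2-K2 ranked at 418 and Gbp11 at 513.

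**Figure D3:**
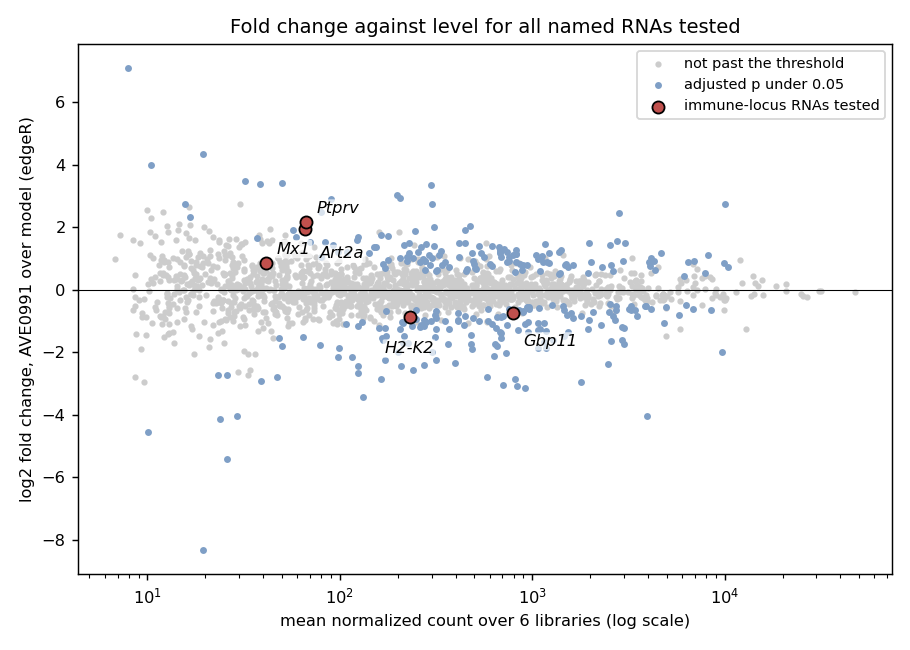
log2 fold change of AVE0991 over model (y axis, edgeR) against the mean normalized count (x axis, log scale) for the 1864 names tested; blue points passed an adjusted p of 0.05, and red points are the 5 immune-locus RNAs tested. Ptprv and Art2a lie near the upper edge for their level, at 2.16 and 1.93, and Gbp11 and H2-K2 lie among many names of similar change, at -0.76 and -0.87.

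Other immune-named RNAs of the table were taken by a list of name stems for interferon, MHC, chemokine, interleukin, T cell and related genes. The list also held single names entered by hand, such as Morrbid, Nron, Snhg5, AW112010, Ptgs2os, Mir142 and Mir155. Mir142b and Ptgs2os, both of which passed, came in by such names. The list was chosen with earlier results of these data known, so the share called is a description only. Of 21 such names, 16 were tested, of which 2 were higher, 1 was lower and 13 did not pass, a share called of 18.8% against 16.0% of all names. Their median log2 fold change was 0.01. The list is a mixed one: only 6 of the 21 are transcribed pseudogenes, and the 3 of those that were tested did not pass.

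Mir142b, at the locus of a microRNA of blood cells and microglia, was the one that fell. It had 1189, 1276 and 1089 normalized counts in the model libraries and 823, 775 and 632 with AVE0991. The groups did not overlap, and the log2 fold change was -0.62 ± 0.15 (SE), with an adjusted p of 0.0300 (edgeR). Such counts come from total RNA at the locus and do not measure the mature microRNA. Dropping any 1 library other than model library c ended the call (adjusted p up to 0.118, edgeR).

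Ptgs2os, an RNA beside the prostaglandin synthase gene Ptgs2, rose from 39.9, 56.4 and 159 normalized counts in the model libraries to 389, 229 and 193 with AVE0991. Its log2 fold change was 1.72 ± 0.50 (SE), with an adjusted p of 0.0497 (edgeR), and as for Art2a the high model library was c. Without model library c the log2 fold change was 2.56. Cd55os, named for the complement regulator Cd55, had 368 ± 43.0 normalized counts in the model group and rose to 535 ± 22.3 (SD, n = 3 each). The log2 fold change was 0.60 ± 0.17 (SE), with an adjusted p of 0.0445 (edgeR). Both calls likewise ended when any 1 library but model library c was dropped (adjusted p up to 0.164 and 0.162, edgeR). The Cd55os call was also lost with no filter on low counts (adjusted p = 0.0582, edgeR). For RNAs that overlap another gene, reads of the 2 strands cannot be told apart, since the strand setting of the counting is not stated.

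Oas1b and Ifi30, interferon-linked RNAs of the list with enough counts to be tested, did not pass (adjusted p of 0.541 and 0.961, edgeR). Nor did AW112010, a further RNA of the list, with a log2 fold change of 0.08 ± 0.32 (SE) and an adjusted p of 0.898 (edgeR). Oas1b, a relative of the interferon-induced RNA-sensing enzymes, had a log2 fold change of 0.52 ± 0.51 (SE), with AVE0991 libraries a, b and c at 41.3, 26.5 and 18.5 normalized counts. Ifi30, a lysosomal reductase induced by interferon, had one of -0.05 ± 0.50, with AVE0991 libraries a, b and c at 44.3, 95.9 and 191 normalized counts. The AVE0991 libraries were thus in opposite orders for Oas1b and Ifi30. Mx1 and H2-K2 had the order of Ifi30, as did Nron and Ptprtos of the list, though Ptprtos spanned only 183 to 213 normalized counts. Library b of H2-K2 lay within counting error of libraries a and c. Art2a had the order of Ifi30 too, but on 94, 99 and 106 counts. Their exact 95% Poisson intervals overlap (76.0 to 115, 80.5 to 121 and 86.8 to 128), so its order is not resolved. Gbp11 had the order of Oas1b, as did Mir142b and Ptgs2os, with libraries a and b of Gbp11 within counting error of each other. Neither order was particular to interferon-linked RNAs. H2-T-ps, another class I MHC locus, had a log2 fold change of -0.32 ± 0.52 and Mir155hg, the host RNA of a microRNA induced in activated immune cells, had one of -0.80 ± 0.41.

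**Figure D4:**
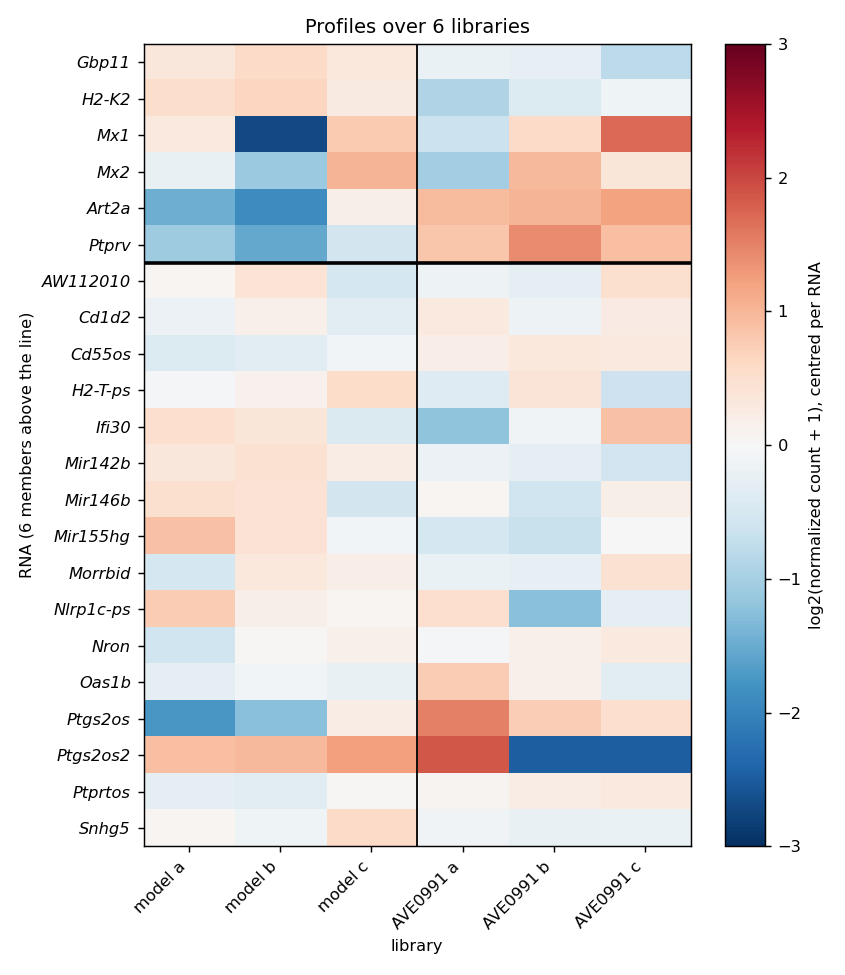
log2(normalized count + 1), centred on each RNA's mean over the 6 libraries (colour), for the 6 RNAs above the line and the 16 other immune-named RNAs tested below it; columns are libraries. Art2a, Ptprv and Ptgs2os are low in model libraries a and b and high in all AVE0991 libraries, and Mx1 is lowest in model library b.

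By the same measure of likeness, the names nearest to each of the 6 RNAs were found among up to 1703 names. With only 6 libraries many names lie close, so these are descriptions of profiles. Nearest to Gbp11 were Mir30d and Mir142b, at 0.11 each, the latter being the RNA from the immune list described above. Mir30d had 6213 to 8197 normalized counts in the model group and 3241 to 4841 with AVE0991, and like Gbp11 was lowest in AVE0991 library c. Nearest to H2-K2 were Mir219a-2, at 0.11, and 4930502A04Rik, at 0.12. Mir219a-2, a locus of a microRNA known from oligodendrocyte maturation, had 789 to 999 normalized counts in the model group and 414 to 558 with AVE0991, in the same order of AVE0991 libraries as H2-K2.

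For the higher RNAs the nearest profiles were those of clone-named RNAs. Nearest to Ptprv was 1700096J18Rik, at 0.20, with 111 to 152 normalized counts in the model group and 450 to 547 with AVE0991. 4930571K23Rik was nearest to Art2a, at 0.29, and shared its high model library c: 583 normalized counts there against 223 and 126 in libraries a and b, and 748 to 933 with AVE0991. 3110039M20Rik was the second nearest to both, at 0.33 from Art2a and 0.30 from Ptprv. The nearest names to the Mx RNAs depended on the pseudocount. A530065N20Rik was nearest to Mx1, at 0.73, and Gm10619 to Mx2, at 0.42, with a pseudocount of 1. With a pseudocount of 5 the nearest were 1700019E08Rik, at 0.56 from Mx1, and Gm19582, at 0.23 from Mx2.

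**Figure D5:**
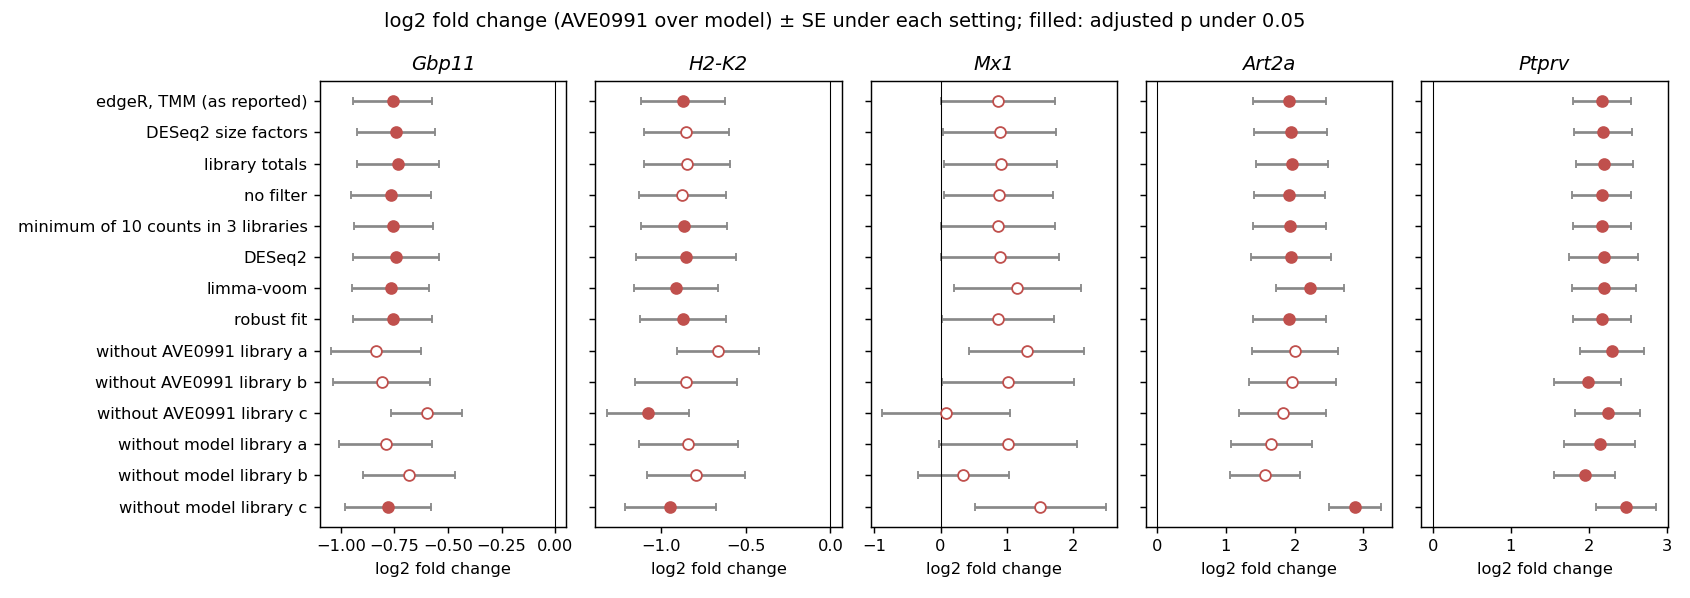
log2 fold change of AVE0991 over model ± SE (x axis) of the 5 RNAs tested under the reported fit and 13 other fits (rows); filled points have an adjusted p under 0.05. Ptprv is filled in every row, Gbp11 and Art2a lose the call in 5 rows with a library left out, H2-K2 in 7 rows, and Mx1 is open in every row.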

How the data were processed

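Per the labels' protocols, reads were checked with FastQC 0.11.8 and trimmed with fastp 0.19.5. The submitters' processing notes list DESeq2 1.10.1, build mm9 and STAR 2.7.7a. The program that counted reads, its annotation and its use of strand are not stated there. The authors deposited whole-number counts per identifier, used here for depth only. Per the file headers, their deposited table by name gives a mean signal per group, a test statistic (a score), degrees of freedom, confidence limits, an unadjusted p-value, a fold ratio and its log2; that ratio equals the means with 1 added to each.

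No file gives counts by name. As in earlier work on these data, they were recovered: each group mean is the mean of 3 counts divided by library factors (0.921 to 1.18), and the variances follow from the statistic and its degrees of freedom. A single set of whole counts was found for 2236 (99.51%) of the 2247 names above 0 (relative tolerance 1e-09 on the mean); 10 had several and 1 lay above the level solved. All 6 RNAs had 1 set. On simulated data 99.78% of 2229 names had 1 set, and all 2224 sets were the simulated counts.

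These counts went into edgeR 4.0.16 (R 4.3.3; TMM, filterByExpr). Standard errors were taken as log2 fold change over the root of F. On 1826 simulated names, 52.9% of 85 changed by 1 on the log2 scale and 89.2% of 111 changed by 2 were called. The alternatives used DESeq2 1.42.0, limma 3.58.1, other scalings and filters, each library left out, and the authors' test adjusted here. The text names the 6 RNAs, called members of the immune list (up to 4), neighbouring RefSeq genes in the table and the 2 nearest profiles per RNA; a few further list members were chosen after their values were seen. The 6 RNAs, the list and the tests were chosen with earlier results of these data known. RefSeq positions are of another build and are used only for neighbours, and sequences were not used here.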

Additional observations from a re-analysis of the deposited data

How the results depend on the processing

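The number of names past the threshold was 299 and stayed within 1.5 times of it, at 282 to 392, under the other scalings, filters and tests run on the recovered counts; with a library left out it ran from 95 to 416. Of the 6 RNAs, 4 passed; 3 or 4 did under those scalings, filters and tests, and 1 to 4 with a library left out, where fewer samples enter. The authors' test, adjusted here, called 0 names and 0 of the 6 RNAs (smallest adjusted p 0.0810 over all names, 0.222 among the 6). It takes the spread of each name from its own 3 values per group; 424 names had an unadjusted p under 0.05 by it, against 576 by edgeR. No fold change of the 5 RNAs tested changed sign under any of these settings. With a pseudocount of 5, the nearest 2 profiles were the same for H2-K2 and Art2a, 1 of 2 was shared for Gbp11 and Ptprv, and 0 for Mx1 and Mx2. No paired analysis was possible because the recovered libraries carry no replicate numbers. The planned search for motifs in promoters was not run, since no sequences were used. Depth limits Mx2, with 12 counts in each group.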

Other observations

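The 5 immune-named RNAs with too few counts for the test are given as values. Cxcl11, a chemokine induced by interferon, had 23 counts in the model group, all in library b, and 11 with AVE0991, in libraries a and c. In that model library Mx1 was at its lowest, with 4 counts. H2-Bl, a class I MHC pseudogene, had 25 counts in the model group and 13 with AVE0991, with 0 in library c of both groups. Il1bos, named for interleukin 1 beta, had 15 and 12 counts, and Ifngas1, beside the interferon gamma gene, had 7 and 4. Trim30e-ps1 had 2 counts in the model group and 0 with AVE0991.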
